A study of Mus musculus with 378 samples.

Results

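The pancreatic islets compared here are the 94 with the highest and the 94 with the lowest RNA of 6 NF-kB target genes, taken from a series of islet preparations of Diversity Outbred mice in which another 190 lay between them. The 6 genes were the chemokines Cxcl1, Cxcl2 and Ccl2, the NF-kB inhibitors Nfkbia and Tnfaip3, and the adhesion molecule Icam1. Each gene was standardised across the libraries of each sex in the deposited variance-stabilised matrix, and the mean of the 6 standardised values was the score of a library. The top 94 libraries by score are called high-score and the bottom 94 low-score. Both groups were thus chosen by the measured RNA of these 6 genes in the same libraries, and no mouse was assigned to either by treatment. The 6 genes were left out of the tests, and their values are given only as a description.

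Each library came from the islets of a different mouse of an outbred stock in which every animal carries its own mix of founder genomes, and all mice, in both groups, were fed a diet with 45% fat. The high-score group held 52 females and 42 males, and the low-score group 47 females and 47 males. The labels used here give no age and no batch, but mice are numbered, and 4 bands of 100 consecutive numbers were kept as strata. Bands 1 to 4 held 25, 21, 25 and 23 high-score libraries and 24, 25, 20 and 25 low-score libraries. Libraries had between 15.1 and 68.8 M counts with a median of 34.8 M (M, 1000000 counts), and band 4 was shallower, with a median of 23.99 M. The study as a whole concerned how genotype shapes islet function.

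NF-kB is a family of transcription factors held in the cytoplasm by inhibitor proteins. Interleukin 1, tumour necrosis factor and Toll-like receptor ligands release it through kinases that destroy the inhibitors, and the freed dimers switch on chemokines, adhesion molecules and their own inhibitors. In islets the pathway is best known from cytokine-exposed beta cells, and the same genes are also induced in islets by isolation and culture. Resident macrophages and endothelial cells use it as well.

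The score ranged from 0.60 to 2.55 in high-score libraries, against -2.25 to -0.61 in low-score libraries. Just outside the limits, the nearest libraries had scores of 0.57 at the upper limit and -0.60 at the lower limit, so neither group was set off by a gap. Among the 6 genes that chose the groups, Cxcl1 had a median of 15.7 CPM (counts per 1000000) in high-score and 4.82 CPM in low-score libraries. Ccl2 had 24.6 and 7.70 CPM, Icam1 52.9 and 24.5 CPM, and Nfkbia 156.2 and 70.6 CPM, in the same order. A score from the 3 chemokines alone would have placed 80 of the 94 high-score libraries in its own top 94, and a score from Nfkbia, Tnfaip3 and Icam1 alone 73 of them.

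Outside the score genes, 16921 genes were tested with limma on the deposited values, which are on a log2-like scale, with sex as covariate. At an adjusted p under 0.05, 7561 genes differed (44.7% of those tested): 3456 were higher in high-score islets (20.4%) and 4105 were lower (24.3%). Most of these differences were small. With a difference of at least 1.2-fold asked for as well, 1324 genes differed (7.82%), of which 1062 were higher (6.28% of those tested) and the rest lower (1.55%). The median difference over all tested genes was -0.01, on values that had been scaled between libraries, so a shift of all RNA together could not be seen. Of the called genes, 89.5% had the same sign in females alone, in males alone and in each number band alone, against 49.9% of all tested genes. These subsets are parts of the libraries that gave the calls, and the called genes are among all tested genes. The shares are therefore a description and not a replication.

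Several measures of the libraries were set beside these counts, in permutation tests within sex adjusted over 5 measures. The groups did not differ detectably in total counts, with means of 33.1 ± 6.91 M in high-score and 33.9 ± 8.71 M in low-score libraries (SD, n = 94 each, permutation test, adjusted p = 0.621). The number of genes detected (adjusted p = 0.488) and the share of mitochondrially encoded counts (adjusted p = 0.621) did not pass these permutation tests either. Counts of the insulin genes made up 12.2% ± 3.18 of a high-score library and 13.9% ± 3.64 of a low-score library (SD, n = 94 each, permutation test, adjusted p = 0.000525). Counts of acinar enzyme genes, RNA of the exocrine pancreas that surrounds islets, made up 0.928% ± 1.12 and 0.465% ± 0.553 (SD, same order and n, permutation test, adjusted p = 0.000525). Gene differences with cell type scores as covariates are given with the cell type markers.

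**Figure D1:**
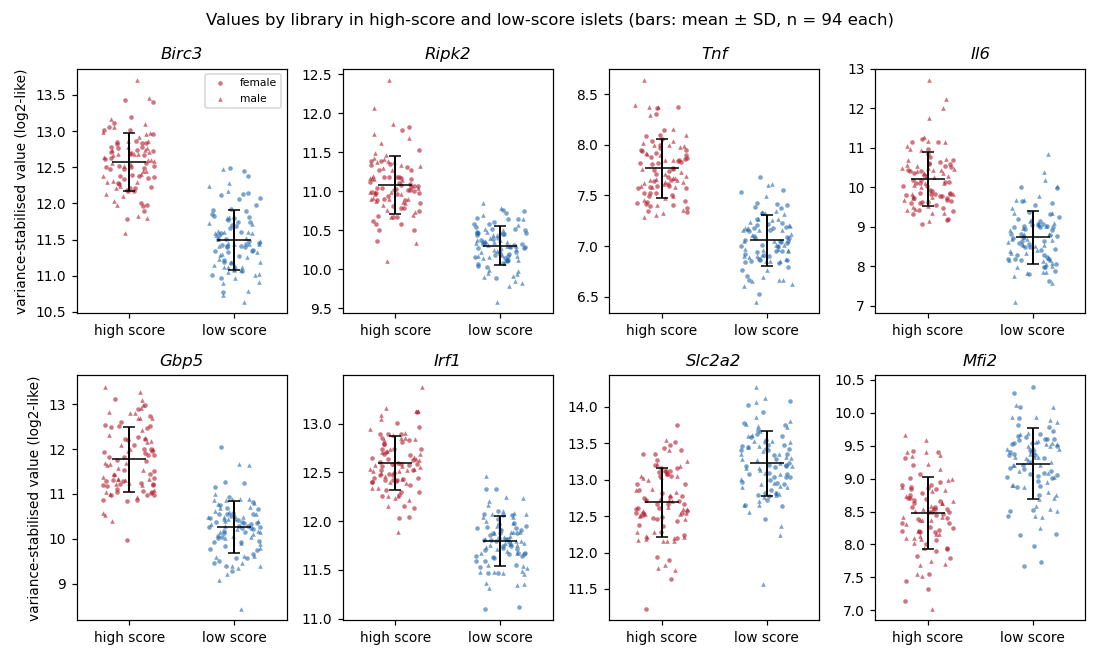
Deposited variance-stabilised value (log2-like, y axis) of 8 genes in each of the 94 high-score (left, red) and 94 low-score (right, blue) libraries, with circles for females, triangles for males, and bars for the mean and SD. Among those drawn, Ripk2 had the most high-score libraries above every low-score library, at 74, although Irf1 had the smallest adjusted p (limma). The values of Slc2a2 and Mfi2 overlapped widely and were lower in high-score islets.

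The NF-kB subunits and the regulators of the pathway were higher together. Of 30 such genes, all of which passed the filter on low counts, 27 were higher and 1 was lower, with a median difference of 0.39. All 5 subunits were among them: Nfkb2, which encodes the p100 precursor, differed by 0.72 ± 0.051, Relb by 0.70 ± 0.042, Rel by 0.60 ± 0.054, Nfkb1 by 0.46 ± 0.047 and Rela by 0.33 ± 0.030 (difference ± SE, limma, adjusted p between 8.8e-17 for Nfkb1 and 2.64e-35 for Relb). Relb and Nfkb2, the subunits of the non-canonical branch, had the largest differences of the 5 and Rela the smallest. Rel lay closer to Relb than Rela did, and the subunits were not tested against each other. Nfkb2 ran from 10.36 to 12.23 with a median of 11.38 in high-score libraries, against 9.75 to 11.43 with a median of 10.65 in low-score libraries. The groups overlapped, and 40 of the 94 high-score libraries lay above every low-score library.

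The largest difference of this list belonged to Birc3 (chromosome 9, 7848699 to 7873186), a ubiquitin ligase of the tumour necrosis factor receptor complex and itself an NF-kB target. Its value ran from 11.59 to 13.71 with a median of 12.59 in high-score libraries, against 10.63 to 12.49 with a median of 11.45 in low-score libraries. The difference was 1.07 ± 0.058 (2.10-fold, limma, adjusted p = 1.67e-40), and 56 high-score libraries lay above every low-score library. The deposited counts of Birc3 were fractional in every library, as happens where a counter splits a read between genes it matches equally well, so part of its level may belong to a relative. Ripk2 (chromosome 4, 16122733 to 16163647), the kinase that relays signals from the NOD receptors, had whole counts throughout. It had between 24.6 and 167.4 CPM (median 63.04) in high-score libraries, against 16.2 to 59.7 CPM (median 36.4) in low-score libraries. On the log2-like scale the difference was 0.78 ± 0.046 (limma, adjusted p = 9.18e-37), and 74 of 94 high-score libraries exceeded every low-score library.

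Inhibitors of the pathway were higher together with its activators. Nfkbie, an inhibitor of the same family as Nfkbia, differed by 0.76 ± 0.048, Bcl3, a nuclear member of that family, by 0.79 ± 0.054, and Tnip1, a partner of Tnfaip3, by 0.60 ± 0.040 (difference ± SE, limma, adjusted p from 1.05e-29 to 1.4e-33). Map3k8, a kinase freed when Nfkb1 is processed, differed by 0.62 ± 0.042 (limma, adjusted p = 2.54e-31). The core kinase complex differed far less. Named here after its values were seen, Ikbkg, the regulatory subunit of that complex, was the only lower gene of the list, at -0.12, while Ikbkb was higher by 0.07 and Chuk, at 0.00, did not pass the test.

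Chemokines and cytokines outside the score had some of the largest differences of the transcriptome. Of 29 listed, 26 passed the filter on low counts, and 25 of these 26 were higher and 0 lower, with a median difference of 0.66. Il6 (chromosome 5, 30013114 to 30019981), the cytokine of the acute phase response, had between 12.6 and 152.8 CPM (median 33.7) in high-score libraries, against 1.64 to 43.8 CPM (median 9.70) in low-score libraries. Every high-score library lay above the low-score median on the log2-like scale, and 14 lay above every low-score library. On the log2-like scale Il6 differed by 1.48 ± 0.098 (2.80-fold, limma, adjusted p = 1.06e-31). Lif, a cytokine of the same family, differed by 1.22 ± 0.082 (limma, adjusted p = 3.25e-31). Csf1, the growth factor of macrophages, had between 30.6 and 122.02 CPM in high-score libraries, against 18.9 to 60.8 CPM in low-score libraries, and differed by 0.76 ± 0.047 (limma, adjusted p = 4.22e-34).

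Macrophage-type chemokines were scarce but separated the groups well. Ccl3, Ccl4 and Ccl7 averaged 4.38, 3.37 and 3.20 CPM over all libraries, and differed by 0.90 ± 0.054, 0.86 ± 0.050 and 0.98 ± 0.060 (difference ± SE, limma, adjusted p from 6.24e-35 to 4.75e-37). Tnf (chromosome 17, 35199381 to 35202007), the cytokine that activates NF-kB in most cell types, had between 2.29 and 8.51 CPM (median 3.92) in high-score libraries, against 0.42 to 3.81 CPM (median 1.70) in low-score libraries. For Tnf 51 high-score libraries lay above every low-score library on the log2-like scale. The difference of Tnf was 0.71 ± 0.040 on the deposited scale (limma, adjusted p = 3.88e-39), and 1.26 (log2) by edgeR on the counts. The variance-stabilising transform compresses genes of low count, and its part in this gap was not tested. Il1b, which drives the interleukin 1 response of islets, overlapped more: it ran from 8.82 to 10.41 in high-score libraries, against 7.99 to 10.15 in low-score libraries. Its difference was 0.43 ± 0.056 (limma, adjusted p = 1.17e-11), smaller than that of most cytokines of the list.

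The DNA upstream of Il6, Csf1 and Cxcl10 is shown because each holds the NF-kB motif, searched here as the letters GGGA and TTCC with any 2 bases between them. The lines give 250 bases before the annotated start on the gene's own strand, from RefSeq promoters of build GRCm38.p6, with matches in capitals to this motif or to the interferon motif, GAAA repeated after any 2 bases. Both strands were searched, so the match of Csf1 reads as the reverse complement. The windows are chr5:30012864-30013113 (plus strand) for Il6, chr3:107760470-107760719 (minus strand) for Csf1 and chr5:92348890-92349139 (minus strand) for Cxcl10.
Il6: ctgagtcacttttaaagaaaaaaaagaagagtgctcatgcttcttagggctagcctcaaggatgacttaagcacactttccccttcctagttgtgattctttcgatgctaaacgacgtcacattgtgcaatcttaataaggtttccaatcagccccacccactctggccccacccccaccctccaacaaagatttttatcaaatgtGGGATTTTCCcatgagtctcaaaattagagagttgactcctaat
Csf1: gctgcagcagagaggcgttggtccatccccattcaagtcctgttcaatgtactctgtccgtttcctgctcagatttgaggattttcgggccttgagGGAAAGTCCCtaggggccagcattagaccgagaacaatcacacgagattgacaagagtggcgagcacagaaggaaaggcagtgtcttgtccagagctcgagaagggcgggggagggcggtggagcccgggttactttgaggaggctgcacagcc
Cxcl10: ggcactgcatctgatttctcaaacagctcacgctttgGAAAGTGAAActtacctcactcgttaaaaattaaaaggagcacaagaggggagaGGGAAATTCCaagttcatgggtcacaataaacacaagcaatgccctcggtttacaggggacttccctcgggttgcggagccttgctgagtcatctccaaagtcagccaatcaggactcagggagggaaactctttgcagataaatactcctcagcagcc
The NF-kB letters occurred in 1.21% of all 32851 windows of the RefSeq table. They occurred in 2.11% of the 994 windows that matched genes higher by at least 1.2-fold, and in 0% of the windows that matched genes lower by as much. In the list of chemokines and cytokines 4 of 20 windows held them, in that of NF-kB subunits and regulators 3 of 30, and in that of adhesion and inflammatory effectors 0 of 20. The interferon list had 1 of 24 and the beta cell list 1 of 23. A match is a run of letters only: binding was not measured, and a window without the letters says nothing about the factor.

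Receptors and their adaptors were higher in part. Of 26 tested, 21 were higher and 3 lower, with a median difference of 0.33. Osmr, the receptor of oncostatin M, differed by 0.65 ± 0.045, Myd88, the adaptor of interleukin 1 and Toll-like receptors, by 0.59 ± 0.040, the death receptor Fas by 0.75 ± 0.052 and Tnfrsf1b, a tumour necrosis factor receptor, by 0.55 ± 0.041 (difference ± SE, limma, adjusted p from 2.83e-27 to 7.34e-30). Myd88 ran from 9.85 to 11.44 in high-score libraries, against 9.35 to 10.37 in low-score libraries, and 57 high-score libraries lay above every low-score library. Il1rn, the natural antagonist of interleukin 1, differed by 0.78 ± 0.064 (limma, adjusted p = 4.92e-23). The 3 lower genes, named after their values were seen, were Tlr4 at -0.14, Il6ra at -0.10 and Irak1 at -0.08.

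Adhesion molecules and inflammatory effectors were higher without exception among those tested: 23 of 23, with a median difference of 0.52, of 30 listed. Ptgs2, the inducible cyclooxygenase, had between 4.40 and 63.8 CPM (median 13.3) in high-score libraries, against 1.17 to 16.1 CPM (median 4.55) in low-score libraries. Its difference was 1.17 ± 0.073 (2.26-fold, limma, adjusted p = 1.7e-34). On the log2-like scale, though not in CPM, every high-score library lay above the low-score median. Steap4, a metalloreductase induced by cytokines, differed by 1.40 ± 0.103 (limma, adjusted p = 3.99e-27). Sele and Vcam1, by which endothelium holds leukocytes, differed by 0.86 ± 0.067 and 0.84 ± 0.077 (difference ± SE, limma, adjusted p = 6.7e-25 and 6.85e-20), and Selp, of the same function, was 2.14-fold higher (limma, adjusted p = 2.47e-19). Of 16 genes of the IL-6 family and STAT3 targets that passed the filter on low counts, 16 were higher, with a median of 0.45. Socs3, the feedback inhibitor of STAT3, differed by 0.78 ± 0.063, Pim1, a kinase induced by STAT3, by 0.59 ± 0.037 and Cebpd, a factor of the acute phase, by 0.93 ± 0.088 (difference ± SE, limma, adjusted p from 5.43e-19 to 1.46e-33).

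**Figure D2:**
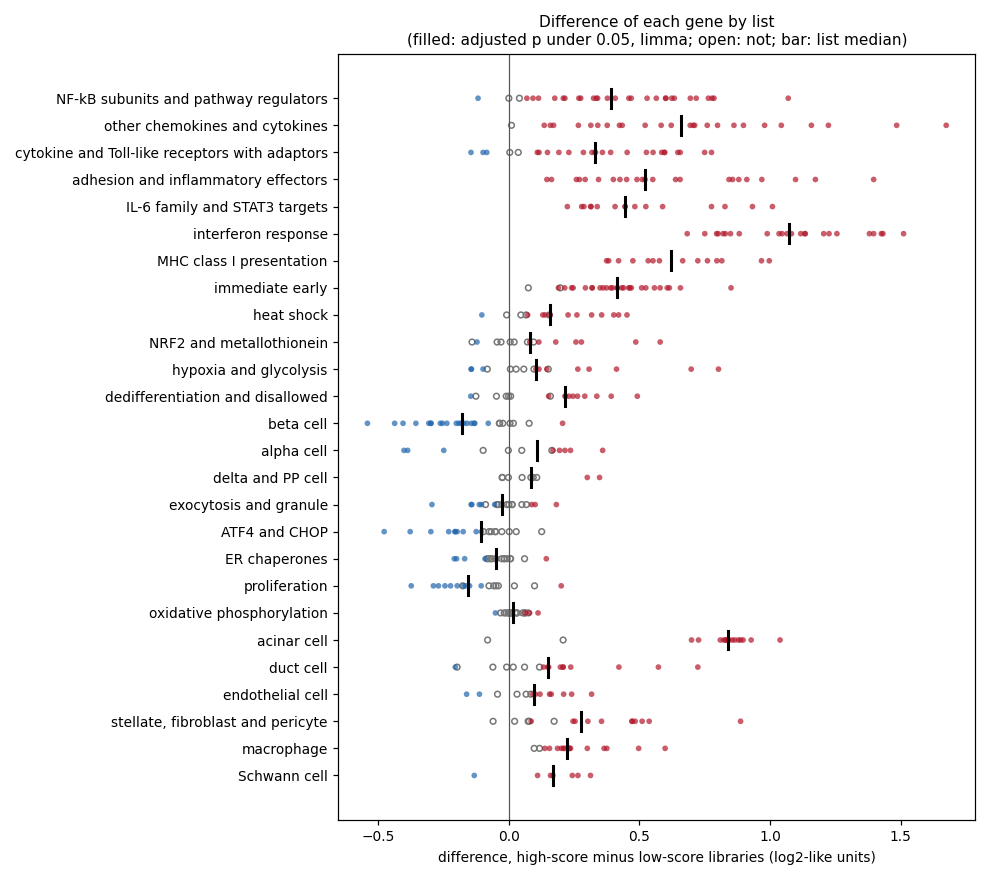
Difference between high-score and low-score libraries (x axis, log2-like units) of each tested gene in 26 gene lists (rows), filled where the adjusted p was under 0.05 (red higher, blue lower in high-score islets), open where not, with a bar at the list median. The lists of NF-kB, cytokine, interferon and antigen presentation genes lay mostly to the right of 0, and the beta cell list lay mostly to its left, with a median of -0.18.

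The largest median of any list belonged to the interferon response, although none of its genes was used to choose the groups. All 24 of the listed genes were higher, with differences from 0.68 to 1.51 and a median of 1.07, and so were 14 of 14 genes of MHC class I presentation, with a median of 0.62. Irf1 (chromosome 11, 53770014 to 53778374), a transcription factor induced by interferon and also by NF-kB, had the smallest adjusted p of all tested genes. Its value ran from 11.89 to 13.38 with a median of 12.58 in high-score libraries, against 11.10 to 12.47 with a median of 11.80 in low-score libraries. Irf1 differed by 0.80 ± 0.039 (1.74-fold, limma, adjusted p = 7.01e-47), and 63 high-score libraries lay above every low-score library.

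Chemokine Cxcl10, which draws T cells and is induced by interferon and NF-kB together, had the largest difference of the genes named by the rule on size. It had between 31.9 and 1084 CPM (median 263.1) in high-score libraries, against 15.2 to 552.2 CPM (median 79.4) in low-score libraries. The difference was 1.67 ± 0.139 (3.19-fold, limma, adjusted p = 6.41e-23). The groups overlapped widely, and 10 high-score libraries lay above every low-score library on the log2-like scale. Rsad2, an antiviral enzyme with whole counts throughout, differed by 1.43 ± 0.132 (limma, adjusted p = 1.82e-19). Irgm1, a GTPase that guards against intracellular microbes, differed by 1.12 ± 0.073, and Stat2 and Irf9, the partners that carry the type I interferon signal to DNA, by 0.88 ± 0.061 and 0.68 ± 0.054 (difference ± SE, limma, adjusted p from 1.24e-24 to 5.21e-32).

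Another 8 interferon-inducible genes completed the 12 largest higher differences together with Cxcl10, Rsad2, Il6 and Steap4. These were Gbp4, Gbp6, Tgtp1, Mx2, Gbp5, Ifit3, Tgtp2 and Ifit1, with differences from 1.40 for Ifit1 to 1.60 for Gbp4. Counts of Gbp5 were whole in 15.6% of libraries, those of Ifit1 in 0.26%, and those of the other six in 0%, and the level of each is uncertain where near-identical relatives share reads. In antigen presentation, Tap1, the peptide transporter, differed by 1.00 ± 0.067, Nlrc5, the activator of MHC class I genes, by 0.97 ± 0.069, and B2m, the light chain of MHC class I, by 0.80 ± 0.062 (difference ± SE, limma, adjusted p from 3.26e-25 to 5.4e-31). B2m ran from 11.78 to 14.19 in high-score libraries, against 11.08 to 13.00 in low-score libraries, and the groups overlapped.

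Of the interferon list, 11 of 24 promoter windows held the GAAA repeat, the core of the element bound by interferon-activated factors. This compares with 2.98% of all windows, 8.65% of windows of genes higher by at least 1.2-fold and 1.95% of windows of genes lower by as much. The window of Isg15, a ubiquitin-like protein induced by interferon, is shown because it holds 3 overlapping matches within a single run (RefSeq, GRCm38.p6, chr4:156200819-156201068, minus strand, matches in capitals).
Isg15: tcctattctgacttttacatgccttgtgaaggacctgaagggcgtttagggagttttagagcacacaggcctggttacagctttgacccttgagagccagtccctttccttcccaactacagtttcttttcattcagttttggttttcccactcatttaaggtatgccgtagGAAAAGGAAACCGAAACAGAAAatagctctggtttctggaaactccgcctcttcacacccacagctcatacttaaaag

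High NF-kB RNA and high interferon RNA did not always coincide in the same mouse. Of the 94 high-score libraries, 52 were among the top 94 of the interferon list score and 5 among its bottom 94, and of the low-score libraries 3 were among its top 94 and 53 among its bottom 94. Such a set of 94 holds 24.9% of libraries. With the interferon list score as a covariate, 25 of 30 NF-kB pathway genes were still higher and 2 lower (14.8% of all genes higher and 15.8% lower in that fit), and 22 of 26 chemokines and cytokines were higher. Il6 kept its difference in that fit at 1.47, whereas Cxcl10 differed by 0.20 and no longer passed the test (limma, adjusted p = 0.14).

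**Figure D3:**
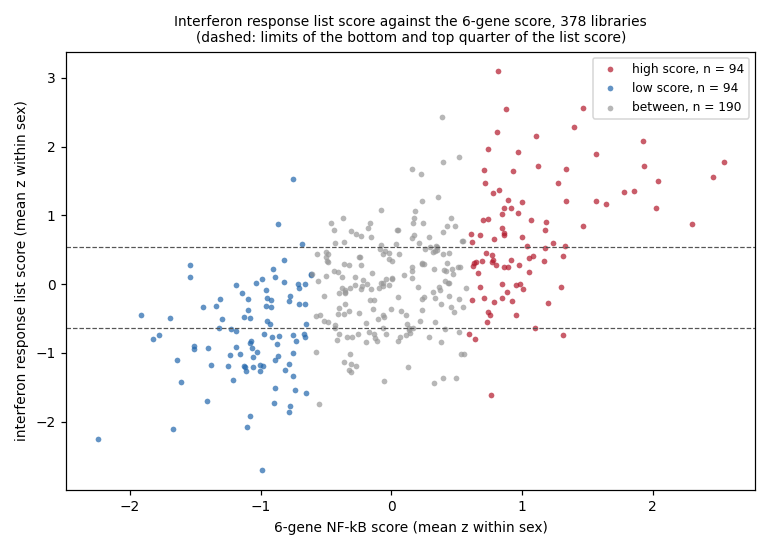
Interferon response list score (y axis, mean standardised value of 24 genes within sex) against the 6-gene score (x axis) in every library, with high-score libraries in red, low-score in blue and the 190 between in grey. Dashed lines mark the limits of the top and bottom 94 libraries by interferon list score: 52 red points lie above the upper line and 5 below the lower.

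Immediate early genes, which are switched on within minutes by many stimuli and by tissue handling, were higher as a group. Of 29 tested, 27 were higher and 0 lower, with a median of 0.41. Zfp36, which destabilises cytokine mRNAs, ran from 10.19 to 12.26 in high-score libraries, against 9.60 to 11.11 in low-score libraries, and 61 high-score libraries lay above every low-score library. It differed by 0.85 ± 0.054 (limma, adjusted p = 1.11e-33), although its counts were fractional in every library. Nr4a3, an orphan nuclear receptor, differed by 0.66 ± 0.066 and Ier5 by 0.41 ± 0.036 (difference ± SE, limma, adjusted p = 2.31e-17 and 3.76e-21). Of the top 94 libraries by immediate early list score, 43 were high-score and 6 low-score. With that score as a covariate, 25 of 30 NF-kB pathway genes were higher and 0 lower, and 24 of 24 interferon genes were higher (15.7% of all genes higher and 18% lower in that fit).

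Other stress programmes differed less. Of 16 heat shock genes 11 were higher and 1 lower, with Bag3, a co-chaperone, at 0.40 ± 0.049 (limma, adjusted p = 9.29e-13). Of 15 NRF2 and metallothionein genes 7 were higher and 1 lower, with Txnrd1, thioredoxin reductase, at 0.26 ± 0.038 (limma, adjusted p = 3.41e-09). Targets of the stress factors ATF4 and CHOP went the other way: of 19 tested, 0 were higher and 10 lower, with a median of -0.10. In number bands 1 to 4 alone, 0, 2, 5 and 4 of 19 were lower, with medians of -0.02, -0.17, -0.15 and -0.13. In the libraries between the groups 18 of 19 had a negative slope on the score, and 0 were called. Trib3, a pseudokinase induced by CHOP, ran from 9.13 to 12.14 with a median of 10.40 in high-score libraries, against 9.44 to 12.68 with a median of 10.89 in low-score libraries. The groups overlapped almost entirely, and the difference was -0.48 ± 0.088 (limma, adjusted p = 1.61e-06). Chac1, which degrades glutathione, differed by -0.38 ± 0.081, and Mthfd2, an enzyme of mitochondrial folate metabolism, by -0.21 ± 0.045 (difference ± SE, limma, adjusted p = 3.55e-05 and 5.76e-05). Of 18 ER chaperones and folding genes 1 was higher and 4 were lower. With 20.4% of all genes higher and 24.3% lower, this share of lower genes was near that of all genes.

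Some metabolic genes that beta cells normally keep low were higher in high-score islets. Hk2, a hexokinase of high glucose affinity, differed by 0.70 ± 0.052, Pfkfb3, which drives glycolytic flux, by 0.80 ± 0.065, and Slc16a1, a lactate and pyruvate transporter, by 0.39 ± 0.038 (difference ± SE, limma, adjusted p from 2.98e-18 to 8.64e-27). Hk2 ran from 7.11 to 9.88 in high-score libraries, against 6.54 to 7.97 in low-score libraries, with 32 high-score libraries above every low-score library. Over the lists these genes come from, 8 of 17 hypoxia and glycolysis genes were higher and 3 lower, and 10 of 17 dedifferentiation and disallowed genes were higher and 1 lower. With scores of 6 cell types as covariates beside sex, the first list had 2 higher and 4 lower, and the second 6 higher and 3 lower. Both medians were then -0.01, with 14% of all genes higher and 15.5% lower. The 6 cell types were acinar, duct, endothelial, stellate, macrophage and lymphocyte. Some genes of the second list also belong to the duct and stellate lists, so its values in that fit are not independent of the covariates. In bulk islet RNA the cells that carried these transcripts were not identified. Aldh1a3, a marker of dedifferentiated beta cells named after its value was seen, was at 0.16 and did not pass the test.

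Beta cell genes were mostly lower. Of 26 tested, 19 were lower and 1 was higher, with a median of -0.18. Slc2a2 (chromosome 3, 28697903 to 28731359), the glucose transporter GLUT2 of rodent beta cells, had between 75.1 and 413.2 CPM (median 200.4) in high-score libraries, against 63.5 to 637.6 CPM (median 300.04) in low-score libraries. The ranges overlapped almost fully, yet 83 of 94 high-score libraries lay below the low-score median on the log2-like scale. The difference of Slc2a2 was -0.54 ± 0.066 (1.46-fold lower, limma, adjusted p = 1.53e-12). Glp1r, the receptor of the incretin GLP-1, ran from 10.39 to 13.08 in high-score libraries, against 11.82 to 13.33 in low-score libraries, and 23 high-score libraries lay below every low-score library. Glp1r differed by -0.40 ± 0.057 and Nkx6-1, a transcription factor of mature beta cells, by -0.30 ± 0.044 (difference ± SE, limma, adjusted p = 5.31e-10 and 1.83e-09). The higher gene was Neurod1, another beta cell transcription factor, at 0.21 ± 0.032 (limma, adjusted p = 1.59e-08). In bulk islet RNA, fewer cells of a type and less RNA per cell cannot be told apart.

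Hormone transcripts differed little. Ins1 differed by -0.19 ± 0.055 and Ins2 by -0.14 ± 0.050, and the counts of both were fractional in every library (difference ± SE, limma, adjusted p = 0.00237 and 0.0129). Gcg, the glucagon gene of alpha cells, was higher by 0.36 ± 0.099 and Ppy, pancreatic polypeptide, by 0.30 ± 0.110 (difference ± SE, limma, adjusted p = 0.00144 and 0.0186). These 4 calls were not stable. In females alone Gcg was at 0.17 and Ppy at -0.010, and in males alone they were at 0.56 and 0.65 (limma, adjusted p = 0.267 and 0.968 in females, 0.00498 and 0.00218 in males). With groups from a score of Nfkbia, Tnfaip3 and Icam1 alone, Gcg was at 0.15, Ppy at 0.18, Ins1 at -0.11 and Ins2 at -0.074, and 0 of these 4 passed the test. In number bands 1 to 4 alone Gcg was at 0.52, 0.22, 0.014 and 0.59, and its call was also lost with smaller groups at the extremes of the score. Sst, somatostatin of delta cells, was at 0.11 ± 0.109 and did not pass the test (limma, adjusted p = 0.444). Of 12 alpha cell genes 5 were higher and 3 lower. Slc7a2, an arginine transporter counted among the alpha cell genes, was at -0.40 ± 0.047 (limma, adjusted p = 2.6e-13).

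The 12 largest lower differences under the rule on size spanned several functions. Mfi2, which encodes the iron-binding melanotransferrin, ran from 7.02 to 9.66 with a median of 8.50 in high-score libraries, against 7.68 to 10.40 with a median of 9.32 in low-score libraries. It differed by -0.75 ± 0.079 (1.68-fold lower, limma, adjusted p = 7.17e-16), the largest lower difference under the rule, and 86 of 94 high-score libraries lay below the low-score median. Abhd15, a hydrolase family protein, differed by -0.58 ± 0.057 (limma, adjusted p = 1.15e-17), with fractional counts in every library. The amino acid transporter gene Slc6a19 and its antisense partner Slc6a19os differed by -0.58 ± 0.111 and -0.56 ± 0.082, and since the counting is not stated to use strand, reads of these overlapping genes cannot be told apart. The others were Arhgap36 at -0.62, Col6a6 at -0.60, Dcx, a microtubule protein, and Fer1l6 at -0.53 each, Acvr1c, an activin receptor, at -0.50, and Hapln4 and Camk1g at -0.49 each, with adjusted p from 2.53e-10 for Acvr1c to 0.00602 for Col6a6 (limma). In males alone Col6a6, at -0.54, did not pass the test (limma, adjusted p = 0.135).

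Of 18 proliferation genes 10 were lower and 1 higher, with a median of -0.16 (24.3% of all genes lower and 20.4% higher). In number bands 1 to 4 alone 2, 4, 0 and 1 of 18 were lower, with medians of -0.09, -0.25, -0.06 and -0.11. In females alone 3 were lower and in males alone 8 (11.7% and 16.6% of all genes lower). Top2a, the topoisomerase of dividing cells, was at -0.37 ± 0.088, and Rrm2, a subunit of ribonucleotide reductase, at -0.27 ± 0.047 (difference ± SE, limma, adjusted p = 0.000179 and 5.69e-07). The higher gene was Pcna, the DNA polymerase clamp, at 0.20 ± 0.033 (limma, adjusted p = 1.08e-07).

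Markers of other cell types moved with the score. Of 19 acinar genes tested, 17 were higher in high-score islets, with a median of 0.84, and the summed level of the 20 acinar genes with a row ran from 142.9 to 57091 CPM (median 6190) in high-score libraries, against 320.4 to 43068 CPM (median 3017) in low-score libraries. The acinar list median was 0.28 in females, with 0 of 19 called (12.7% of all genes higher and 11.7% lower in females), and 1.45 in males, with 17 of 19 called (16.1% higher and 16.6% lower), but 0 of these genes passed the test of the difference between the sexes (limma interaction). In number bands 1 to 4 alone the acinar medians were 1.22, 1.19, 1.27 and 0.06, with 0, 15, 14 and 0 of 19 called higher. Of all genes, 8.69% were higher and 4.67% lower in band 1, 7.44% and 5.31% in band 2, 7.1% and 4.8% in band 3, and 8.34% and 6.28% in band 4. The NF-kB pathway list had medians of 0.36, 0.40, 0.38 and 0.38 in bands 1 to 4, with 20, 22, 24 and 23 of 30 genes higher. All 24 interferon genes were higher in each band, with medians between 0.94 and 1.19. The beta cell list varied more: its medians were -0.25, -0.07, -0.16 and -0.26, with 7, 2, 7 and 11 of 26 genes lower, so in band 2 its share of lower genes was near that of all genes. No gene passed the test of a difference between bands (limma interaction).

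Macrophage markers were higher in 14 of 16 cases, with a median of 0.22 and summed levels from 76.2 to 259.9 CPM (median 130.9) in high-score libraries, against 60.7 to 199.4 CPM (median 106.3) in low-score libraries. None of these 16 markers was at 0 in any library. Cd86, which macrophages raise on activation, differed by 0.60 ± 0.046, and Ptprc, the pan-leukocyte marker, by 0.38 ± 0.049 (difference ± SE, limma, adjusted p = 2.13e-25 and 1.69e-11), while Csf1r and C1qa, chosen after their values were seen, were at 0.12 and 0.10 and did not pass the test. Among 8 neutrophil and monocyte genes with a row, summed levels ran from 11.1 to 45.0 CPM (median 18.2) in high-score and from 4.82 to 21.5 CPM (median 12.1) in low-score libraries, and Ly6c2 and Ccr2 were among the genes at 0 in some libraries. Stellate cell and fibroblast genes were higher in 11 of 16 cases, led by Dcn, the matrix proteoglycan decorin, at 0.89 ± 0.092 (limma, adjusted p = 1.96e-16). Of 17 duct genes 10 were higher and 1 lower, and of 14 endothelial genes 8 were higher and 2 lower.

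With scores of 6 cell types as covariates beside sex, 14% of all genes were higher and 15.5% lower. In that fit 26 of 30 NF-kB pathway genes, 21 of 26 chemokines and cytokines, 24 of 24 interferon genes and 14 of 14 MHC class I presentation genes were higher. The immediate early list had 12 of 29 higher, with a median of 0.13, and the beta cell list had 8 of 26 lower, with a median of -0.08. Birc3 was at 1.11 and Il6 at 0.96 in that fit, and Slc2a2 at -0.39. Col6a6 was at -0.18.

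**Figure D4:**
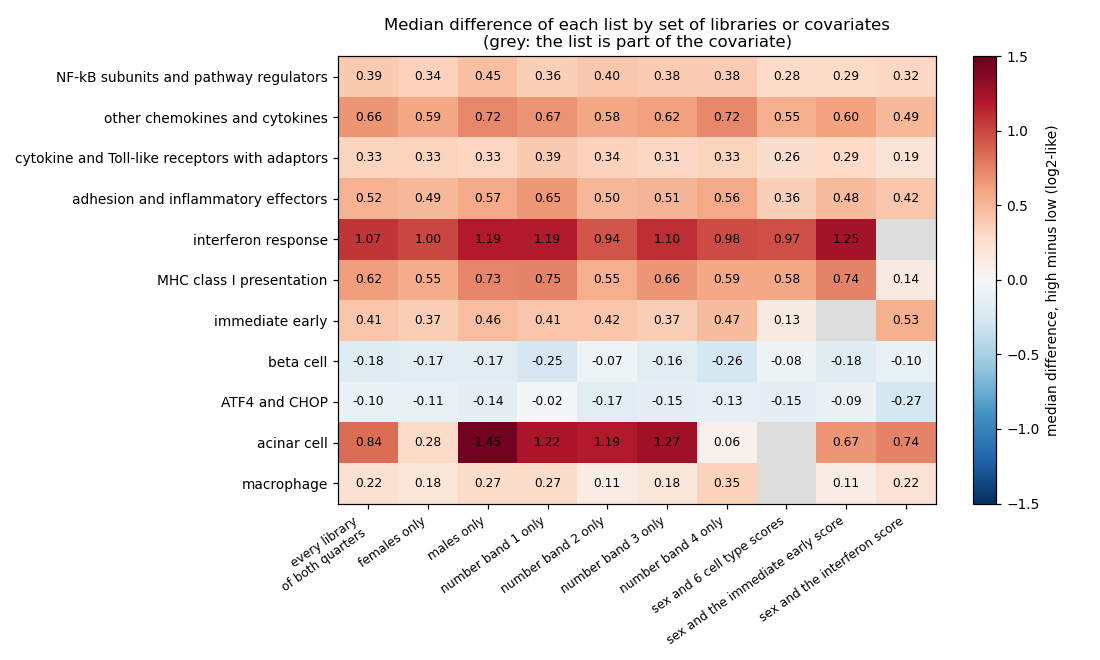
Median difference between high-score and low-score libraries (numbers and colour, log2-like units, red higher and blue lower in high-score islets) of 11 gene lists (rows) in all libraries of both groups, in subsets of them, and with covariates (columns), with grey cells where the list is part of the covariate. The NF-kB and interferon medians stayed above 0 in every column drawn, while the acinar median ran from 0.06 in number band 4 to 1.45 in males.

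The 190 libraries between the groups, which the comparison did not use, were fitted on the score itself with sex as covariate. Over their narrow range of scores 1.22% of the 16921 genes had a positive slope at an adjusted p under 0.05 and 50 genes (0.295%) a negative slope. All but 6 of the genes with a called slope were also called in the same direction between the groups. Of 30 NF-kB pathway genes 11 had a positive slope, of 26 chemokines and cytokines 12, and of 23 adhesion and effector genes 11. The interferon list gave 1 of 24, the beta cell list 1 of 26 with a negative slope, and the acinar list 0 of 19. Called or not, all 24 interferon slopes were above 0, with a median of 0.26, against a median of 0.17 in the NF-kB pathway list. The acinar list had 7 slopes above 0 and 12 below, and the beta cell list 7 above and 19 below. The slope of Birc3 was 0.60 per unit of score (limma, adjusted p = 1.21e-08) and that of Il6 0.62 (limma, adjusted p = 0.000653), whereas that of Cxcl10, at 0.58, did not pass the test (limma, adjusted p = 0.095). Slc2a2 was the beta cell gene with a called slope, at -0.33 (limma, adjusted p = 0.0359). Among genes that differed between the groups by at least 1.2-fold, 93.9% had a slope of the same sign between them, against 73.4% of all tested genes.

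**Figure D5:**
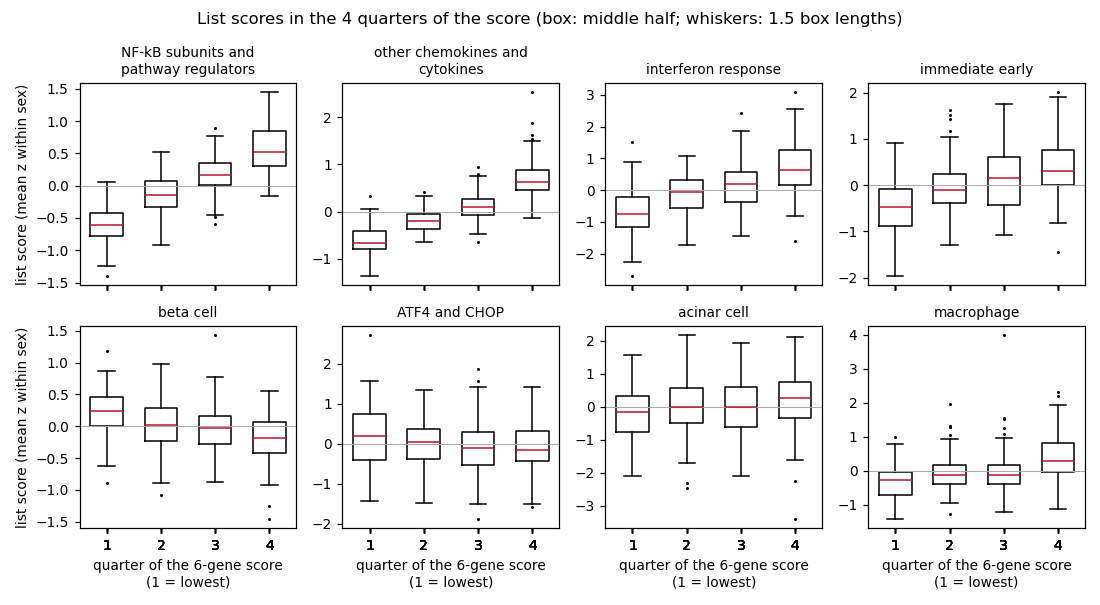
Scores of 8 gene lists (y axis, mean standardised value within sex) in 4 bins of all libraries by the 6-gene score (x axis, lowest to highest). The lowest bin is the low-score group, and the highest is the high-score group with the library ranked just below it. Boxes show the middle of each bin, a red line its median, and whiskers reach 1.5 box lengths. The medians of the NF-kB and cytokine lists climbed through all 4 bins, and those of the beta cell and ATF4 lists declined.

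The difference was alike in direction in the sexes. Of the 30 NF-kB pathway genes 24 were higher in females and 26 in males, and all 24 interferon genes were higher in each sex. An interaction of score group with sex was called for 1 of 16921 genes (0.00591%, limma, 1251 genes at an unadjusted p under 0.05), and an interaction with number band for 0 genes (0%, limma, 739 genes at an unadjusted p under 0.05). No other tool was run on the interactions.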

How the data were processed

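RNA of pancreatic islets was sequenced after poly(A) selection, per the labels' protocols. The authors deposited estimated counts per gene, not scaled between libraries, and a variance-stabilised matrix in log2-like units, in which depth no longer shows. Per the submitters' processing notes GRCm38 and DESeq2 were used. Neither an aligner nor a counter is named in the sources used here. Number bands held a median of 0.0358% of a gene's variance in the deposited log2 values and 14.3% in log2(CPM + 1) from the counts, where random bands would hold 0.796%, so differences between bands had been removed from the deposited values by a step not given in the sources used here.

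Groups followed the 6-gene score within sex. Expected counts were rounded for edgeR and DESeq2. Genes kept by filterByExpr by sex (16927, of which 6 were score genes) were tested with limma 3.58.1 (trend, sex as covariate, R 4.3.3) and Benjamini-Hochberg adjustment over all of them at 0.05, coded high minus low, and SE is the standard error of that difference. A fold is 2 to the power of the difference on the log2-like scale, which understates changes of low genes. The 1.2-fold rule uses the same scale. Interaction terms tested sex and number band. Library measures were permuted 100000 times within sex. List scores were mean standardised values within sex, ranked over every library. CPM are counts per 1000000 of a library's total, and coordinates came from the deposited gene table. Alternatives comprised edgeR 4.0.16, DESeq2 1.42.0, limma-voom, other scores, group sizes, filters and covariates. The high-against-low fits by limma and by edgeR and the permutation test were checked on simulated data. The interactions, slopes, DESeq2 and limma-voom were not.

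The score genes, the gene lists and the rule for named genes were chosen with earlier results of these data known, so their directions are not independent evidence. Under that rule the text names the 12 largest differences in each direction among called genes (a mean of 2 CPM or more, one sign in both sexes and all bands, no placeholder symbol), 4 members per list, ranked by adjusted p (8 in the 4 lists on NF-kB, cytokines, receptors and effectors), and preset hormone, subunit and cytokine genes. Not every gene that the rule selects is reported here. A name outside the rule is marked in the text as picked with its value known. Each mouse gave a single library, so the tests set differences against the spread between libraries, in which mouse and islet preparation cannot be told apart. Depth was 15.1 to 68.8 M counts per library.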

Additional observations from a re-analysis of the deposited data

Results flagged for a closer look

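The high-against-low difference of C7, a component of the complement membrane attack complex, differed between the sexes in the interaction test: female minus male, it was -0.51 ± 0.0995 (limma, adjusted p = 0.0131 over 16921 genes). C7 ran from 5.56 to 7.21 with a median of 6.05 in 52 high-score females, against 5.55 to 6.21 with a median of 5.89 in 47 low-score females. In males it ran from 6.14 to 8.41 with a median of 6.99 in 42 high-score libraries, against 5.80 to 7.10 with a median of 6.30 in 47 low-score libraries. C7 was thus higher in high-score libraries of both sexes, by 0.19 ± 0.042 in females and 0.70 ± 0.094 in males (limma, adjusted p = 0.000152 and 2.1e-09), and its direction was the same in each of the 4 number bands. It averaged 0.67 CPM over every library, a level at which the deposited scale compresses differences. The part of this compression was not tested.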

How the results depend on the processing

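Of 29 alternatives, 22 left the share of tested genes that differed, 44.7%, within 1.5 times. The share was 24.5% in females only, 13.4%, 12.7%, 11.9% and 14.6% in number bands 1 to 4 alone, where fewer libraries were compared, 29.5% with 6 cell type scores, and 1.51% for the slope over the libraries between the groups. The share of calls that were higher, 45.7% over both groups, was 65.1%, 58.4%, 59.6% and 57.1% in bands 1 to 4 alone and 80.5% for the slope. The count at 1.2-fold or more, 1324, was 2780 with DESeq2, 2751 with edgeR, 2752 with edgeR on RLE factors and 2739 with limma-voom. These fits used the counts, which are not compressed at low levels, and had number band as a further covariate. The part of either was not tested. The same count was 532 with every library divided at the median score, and 2159 with smaller groups at the extremes. Calls shared in direction numbered 7297 with edgeR and 7343 with DESeq2.

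Of the named genes 15 changed sign under some alternative. Past the threshold, Slc2a1 reversed to -0.19 and Ndufs1 to 0.055 with the immediate early score as covariate. The other reversals did not pass the test there: for the slope between the groups, Camk1g 0.084, Mt2 -0.031, Herpud1 0.010, Rims2 0.040, Rnase1 -0.084, Pnlip -0.081, Krt7 0.0036, Cxcr2 -0.058, Ighm -0.18, Cox6c -0.016, Ndufs1 0.022 and Cox5a -0.016. With 6 cell type scores, Hspb1 was at -0.00074, Slc2a1 at -0.043 and Ndufs1 at 0.0079, with the immediate early score Hspb1 at -0.040, in band 4 Cox6c at -0.025 and Cox5a at -0.084, and in females Ppy at -0.010. The cause was not tested.

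No paired analysis was possible because each mouse number occurs in a single library, so the groups share no numbers. Blocks of 10 mouse numbers as covariate gave 6633 calls. Covariates of acinar, macrophage and interferon scores were added after seeing the data and gave 6938, 5345 and 5184 calls.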

Other observations

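Several gene groups outside the comparisons above also differed. Of 7 Schwann cell genes, markers of the glia that wrap islets, 6 were higher in high-score islets and 1 lower, with a median of 0.17. Gfap, the intermediate filament of reactive glia, was at 0.26 ± 0.043 and Ngfr, the low-affinity neurotrophin receptor, at 0.31 ± 0.051 (difference ± SE, limma, adjusted p = 6.3e-08 and 5.79e-08). Both were scarce, at 0.63 and 1.62 CPM over every library, and their summed list level of 7.07 to 25.5 CPM (median 12.6) in high-score libraries overlapped that of 6.69 to 21.5 CPM (median 11.1) in low-score libraries. Lck, a T cell kinase, was at 0.48 ± 0.046 (limma, adjusted p = 9.56e-19). Of 13 lymphocyte genes with a row, 9 were at 0 in some library, the T cell receptor genes Cd3d, Cd3e and Cd3g among them.

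Other groups showed little. Of 13 mitochondrially encoded genes and 5 red blood cell genes, 0 were called in either direction (limma), and of 17 cholesterol synthesis genes 2 were higher and 1 lower. Of 20 nuclear genes of oxidative phosphorylation 3 were higher and 1 lower, with a median of 0.02. Neighbouring mouse numbers had little in common: the score of a library and that of the next number of the same sex had a correlation of -0.01 in females and 0.11 in males, given as a description.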
